A study of Citrus reticulata with 36 samples.

Results

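The nucellus of the ponkan cultivar "Egan No.1" (EG) was compared between 32 and 18 days after pollination (DAP). Membership followed the sample labels alone and used no measured value: the 3 EG nucellus libraries at 32 DAP were set against the 3 at 18 DAP, 6 of the 36 libraries of the series, over every gene identifier in the count table. The series examined seed abortion in ponkan, a mandarin-type citrus (Citrus reticulata), by RNA sequencing of ovules of EG and of a second cultivar, "Huagan No.4" (HG). Nucellus and integument were collected at 18, 28 and 32 DAP, with 3 libraries for each of the 12 groups, by cutting selected cells out of ovule sections with a laser (laser capture microdissection). The 32 DAP and 18 DAP groups shared cultivar and tissue and differed in stage, and the labels name no treatment. No label links the stage numbers 1 to 3 of the count columns to days, and they were taken to run in time order, as 18, 28 and 32 DAP.

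The nucellus is the maternal tissue at the centre of the ovule. It surrounds the embryo sac, feeds the young seed, and in many flowering plants is broken down cell by cell as the endosperm and embryo grow. In citrus that form several embryos per seed, embryos also arise from nucellar cells without fertilisation.

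Few identifiers separated the EG nucellus at 32 DAP from that at 18 DAP beyond the spread between libraries in the main test, edgeR on all 36 libraries. It called 2 of 57344 tested identifiers, c90109_g1 and c56057_g1, and both fell by 32 DAP. That count is not stable: DESeq2 called 101 (0.176%), voom 1084 (1.89%) and edgeR on the 6 libraries alone 126 of 48869 (0.258%). The main test called 0 when any of the 6 libraries but replicate 3 at 18 DAP was left out. Most identifiers kept their level: the fitted difference was within 2-fold for 86.5% of them, with a median log2 fold change, 32 over 18 DAP, of -0.02. At the same time 98 identifiers (0.171%) stood at least 4-fold higher and 108 (0.188%) at least 4-fold lower at 32 DAP. These had no overlap between the libraries and 5 CPM or more in the higher group. They were chosen on the compared libraries, so their separation there is a description and not a result. EG integument, which is not independent of the nucellus here, differed in the same direction for 76.5% of the 98 and 82.4% of the 108. Among all identifiers at 5 CPM or more these shares were 50.1% and 49.9%. HG nucellus did so for 85.7% of the 98, beside 45.7%, and for 59.3% of the 108, beside 54.3%. It may not be independent either, since replicate 3 of EG and of HG nucellus deviated together at 18 DAP (correlation 0.533). The 3 libraries at 32 DAP were themselves of different kinds, and each of them resembled a 28 DAP library more than at least 1 library of its own stage.

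The deposited table names its features by identifiers such as c90109_g1 and does not pair them with gene names, functions or sequences. Identifiers are therefore described by their levels, no role is given to any of them, and at most 2 per direction are named for a comparison. The gene lists drawn up for cell death, cell cycle, hormones, cell wall and seed storage could not be matched.

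The libraries at 32 DAP held 19916693, 18926755 and 19856736 counts in replicates 1, 2 and 3, and those at 18 DAP held 14444012, 17921464 and 18801753. Of 128861 identifiers in the table, 57344 had enough counts to be tested, and they carried 99.9% of all counts. Levels are CPM, a count divided by its library's effective total, after TMM normalisation, which rescales each library so that most identifiers are level between libraries. One library at 18 DAP stood apart: the 10 most abundant identifiers took 28.9% of the counts of replicate 3, against 7.64% and 12.5% in replicates 1 and 2, and 12.8%, 13.3% and 16.4% at 32 DAP. At 28 DAP, replicate 1 stood apart in the same measure, with 33.8% against 17.7% and 17.0% in replicates 2 and 3. The labels do not tie the captured regions to trees, fruits or ovules, so several libraries could come from the same tree or fruit, which would make the p-values below too small.

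The tissue label was checked with identifiers that separated the tissues in HG, the cultivar not compared here. At least 32-fold preference and a mean of 5 CPM gave 71 nucellus and 173 integument identifiers. Percentages here are of each library's effective total, which TMM has rescaled, so they are not shares of its raw counts. The 71 nucellus identifiers together made up 1.91%, 1.90% and 2.06% of that total in the 32 DAP libraries and 2.08%, 2.01% and 1.64% at 18 DAP. In the 9 EG integument libraries they made up 0.00526% to 0.0304%. The 173 integument identifiers made up 0.00583%, 0.00380% and 0.00380% at 32 DAP and 0.00637%, 0.00510% and 0.00424% at 18 DAP, against 0.239% to 0.422% in EG integument. In nucellus, 1 of the 173 had 0 counts in all libraries at 32 DAP and 3 at 18 DAP. Summed, transcripts that mark the integument in HG were thus scarce at both stages and no more abundant at 32 DAP. Each level was also taken as a share of its HG mean in the same tissue. The median share of the 71 was 72.0%, 73.5% and 69.3% at 32 DAP and 87.2%, 108% and 76.1% at 18 DAP, lower without overlap. For the 173 it was 1.55%, 0.83% and 0.69% at 32 DAP and 1.25%, 1.23% and 0.86% at 18 DAP, with overlap. The median log2 fold change was -0.25 for the nucellus and -0.21 for the integument identifiers, beside -0.02 over all tested identifiers.

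Libraries of the 2 stages were nearly as alike across stages as within them. Spearman correlations of CPM over the tested identifiers were 0.953 to 0.980 among the 32 DAP libraries and 0.927 to 0.957 among the 18 DAP libraries. Between the stages they were 0.920 to 0.957, with a median of 0.937. Replicate 2 at 18 DAP correlated with the 32 DAP libraries at 0.957, 0.957 and 0.954, about as closely as with replicate 1 of its own stage (0.957) and more closely than with replicate 3 (0.941). Its closest match in the whole series was a library of another cultivar and stage, replicate 1 of HG nucellus at 32 DAP (0.974).

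**Figure D1:**
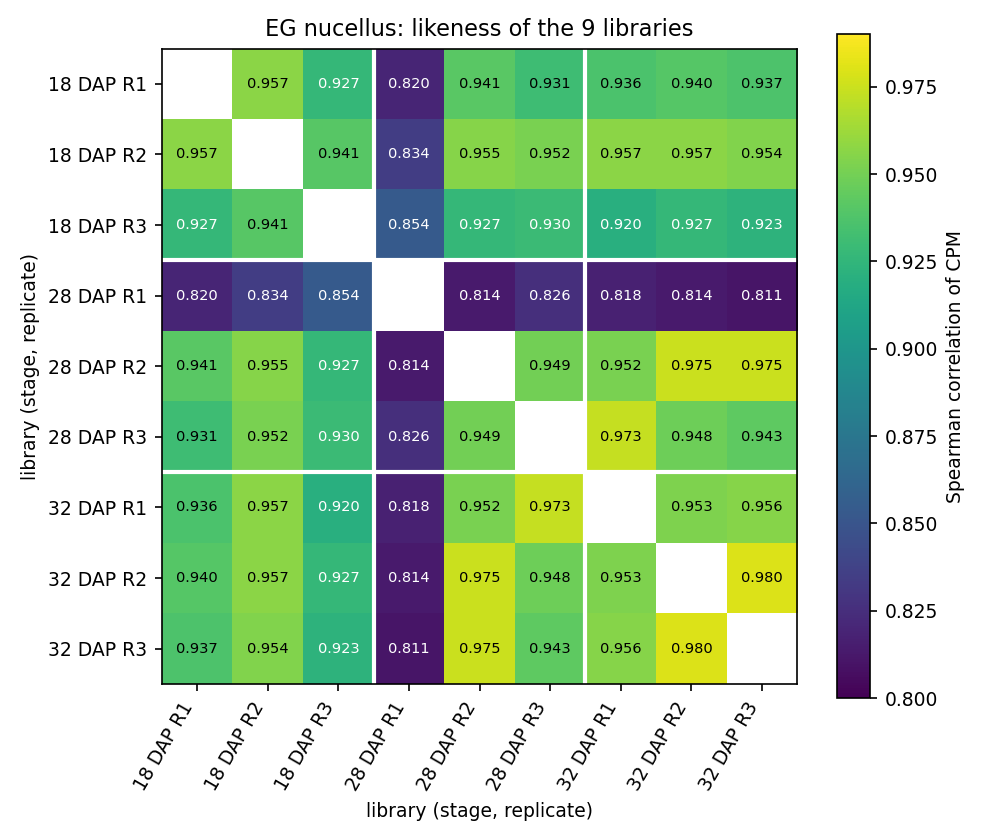
Spearman correlation of CPM between each pair of the 9 EG nucellus libraries, ordered by stage from 18 to 32 DAP and by replicate, with the value written in each cell. Replicate 1 at 28 DAP is unlike every other library, and replicates 2 and 3 at 28 DAP each match libraries at 32 DAP at 0.973 to 0.975.

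The 3 libraries at 32 DAP fell into 2 kinds. Replicates 2 and 3 correlated at 0.980 with each other, and replicate 1 with them at 0.953 and 0.956. The 28 DAP libraries divided in the same way: replicate 2 at 28 DAP correlated at 0.975 with both replicate 2 and replicate 3 at 32 DAP, replicate 3 at 28 DAP at 0.973 with replicate 1 at 32 DAP, and these 2 libraries at 28 DAP with each other at only 0.949. A chi-square per degree of freedom of their counts, for which sampling noise alone gives about 1, was 9.47 between replicate 2 at 28 DAP and replicate 3 at 32 DAP. Between replicates 2 and 3 at 32 DAP it was 10.7, and between replicate 1 and these 2 libraries 32.1 and 40.3. No pair was as close as sampling noise alone would give, so no library was taken as a repeat deposit. The measure covers counting error only and does not show that the libraries came from separate material. The labels call them biological replicates without naming their source.

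The same division appeared in single identifiers. Requiring at least 8-fold and 5 CPM, 41 identifiers were higher in both replicates 2 and 3 than in replicate 1 at 32 DAP, and 31 were higher in replicate 1. At 28 DAP, replicate 2 lay above replicate 3 for 39 of the 41 (95.1%, beside 48.8% of all tested identifiers), and replicate 3 above replicate 2 for 31 of the 31 (100%, beside 50.1%). In EG integument at 32 DAP, replicates 2 and 3 differed from replicate 1 in the same direction for 41 of 41 and 31 of 31, beside 50.0% and 49.5% of all tested identifiers. The identifier c43647_g1, chosen after its values were seen as the most abundant of the 41, stood at 28.7, 2262 and 2113 CPM in replicates 1, 2 and 3 of EG nucellus at 32 DAP. At 18 DAP it stood at 331, 565 and 217 CPM, which lie between the high and the low libraries at 32 DAP. At 28 DAP it stood at 168, 933 and 26.9 CPM, and in EG integument at 32 DAP at 28.9, 1759 and 1867 CPM. The labels do not say what sets the 2 kinds of library apart.

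Each identifier was tested between the stages with edgeR's quasi-likelihood test, fitted to all 36 libraries so that the 12 groups shared an estimate of spread, with Benjamini-Hochberg adjustment over the 57344 identifiers and a threshold of 0.05. "Called" means past that threshold. EdgeR called 2 identifiers (0.00349%), 0 higher (0%) and 2 lower at 32 DAP. At an unadjusted p under 0.05 there were 3311 (5.77%), of which 1441 were higher and 1870 lower. The median standard error of a log2 fold change was 0.50, and the central 90% of fold changes lay between -1.22 and 1.15. In bulk tissue, fewer cells of a type and less RNA per cell cannot be told apart.

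The first of the called identifiers, c90109_g1, stood at 9.78, 4.95 and 10.4 CPM at 32 DAP and at 59.0, 58.0 and 37.3 CPM at 18 DAP. Every 32 DAP library lay below every 18 DAP library, and replicate 3 at 18 DAP was the nearest to them. The means were 8.37 ± 2.98 and 51.4 ± 12.2 CPM (SD, n = 3 each), a log2 fold change of -2.62 (SE 0.40, edgeR adjusted p = 0.0132). At 28 DAP the libraries stood at 31.8, 7.77 and 10.9 CPM. Replicates 2 and 3 at 28 DAP thus lay within or just above the 32 DAP range, and replicate 1 lay between the 32 and 18 DAP libraries.

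In HG nucellus c90109_g1 was also lower at the later stage, at 16.4, 10.1 and 18.4 CPM at 32 DAP and 51.0, 50.5 and 57.4 CPM at 18 DAP. The groups did not overlap there, but the identifier was not called (log2 fold change -1.82, SE 0.39, unadjusted p = 5.61e-05, edgeR adjusted p = 0.152). The difference between the cultivars in this change was not past the threshold (log2 difference, EG minus HG, -0.80, SE 0.54, edgeR adjusted p = 0.884). In EG integument, where it was low throughout, it stood at 8.22, 6.03 and 7.07 CPM at 32 DAP and 9.63, 6.42 and 13.0 CPM at 18 DAP, and the ranges overlapped (log2 fold change -0.44, SE 0.38).

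The second, c56057_g1, stood at 5.82, 6.38 and 4.77 CPM at 32 DAP and at 16.6, 21.4 and 15.1 CPM at 18 DAP. The groups were far apart and each was tight. The means were 5.66 ± 0.82 and 17.7 ± 3.29 CPM (SD, n = 3 each), a log2 fold change of -1.64 (SE 0.26, edgeR adjusted p = 0.0132). The 28 DAP libraries, at 6.58, 6.47 and 4.64 CPM, lay near the 32 DAP level. The difference between 28 and 18 DAP was called as well (log2 fold change, 28 over 18 DAP, -1.58, SE 0.26, edgeR adjusted p = 0.0258).

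In HG nucellus c56057_g1 stood at 8.09, 6.40 and 8.96 CPM at 32 DAP and 22.6, 19.2 and 23.6 CPM at 18 DAP, again without overlap (log2 fold change -1.48, SE 0.26, edgeR adjusted p = 0.0661). Between the cultivars the change differed by -0.16 (log2, EG minus HG, SE 0.35, edgeR adjusted p = 0.984). In EG integument it stood at 9.92, 9.87 and 9.07 CPM at 32 DAP and 15.9, 9.62 and 9.41 CPM at 18 DAP, and the ranges overlapped (log2 fold change -0.27, SE 0.25).

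No identifier was called higher at 32 DAP. The one with the smallest p among those without overlap, c89689_g1, stood at 20.3, 20.1 and 17.9 CPM at 32 DAP and at 4.52, 5.99 and 4.45 CPM at 18 DAP. Its means were 19.5 ± 1.33 and 4.99 ± 0.87 CPM (SD, n = 3 each), a log2 fold change of 1.96 that missed the threshold (SE 0.35, edgeR adjusted p = 0.0630). At 28 DAP replicates 2 and 3 stood at 15.7 and 16.1 CPM, near the 32 DAP level, and replicate 1 at 4.58 CPM, within the 18 DAP range. HG nucellus showed no such difference, with 9.37, 5.63 and 8.63 CPM at 32 DAP and 7.85, 5.25 and 10.9 CPM at 18 DAP. The difference between the cultivars had a log2 value, EG minus HG, of 1.98 (SE 0.48, unadjusted p = 2.58e-04, edgeR adjusted p = 0.714) and did not pass the threshold. In EG integument it was higher at both stages, at 43.8, 33.8 and 33.3 CPM at 32 DAP and 17.0, 26.3 and 29.8 CPM at 18 DAP, with no overlap between the stages (log2 fold change 0.60, SE 0.33).

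**Figure D2:**
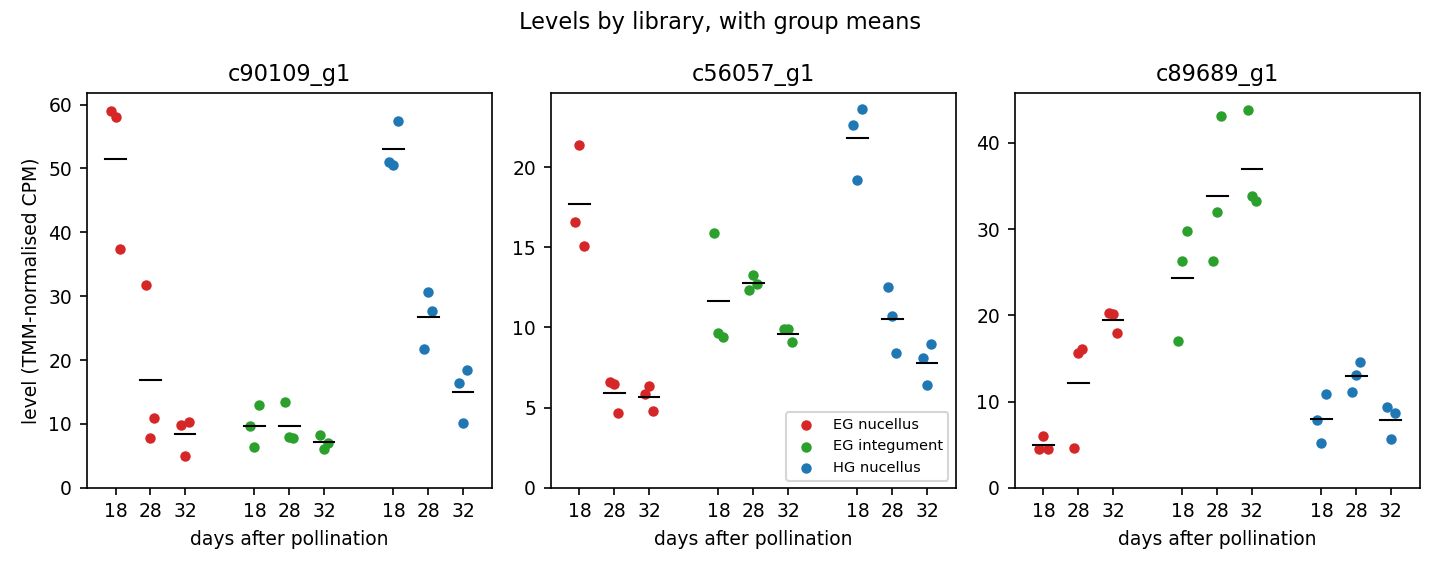
Level in TMM-normalised CPM of c89689_g1, c90109_g1 and c56057_g1 in each library (points) of EG nucellus, EG integument and HG nucellus at 18, 28 and 32 DAP, with group means as bars. The EG nucellus libraries at 32 and 18 DAP do not overlap for any of the 3, and for c89689_g1 and c90109_g1 replicate 1 at 28 DAP lies apart from the other 28 DAP libraries.

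The number of calls depended on the fit. DESeq2 called 101 identifiers (0.176%; 29 higher and 72 lower), voom with sample quality weights 1084 (1.89%; 392 and 692), limma on log2(FPKM + 1) 37 (0.0645%; 5 and 32), and edgeR on the 6 libraries alone 126 of 48869 (0.258%; 56 and 70). Lower calls outnumbered higher ones in each of these. DESeq2 and edgeR on the 6 libraries alone shared 8 higher and 29 lower identifiers, 36.6% of the DESeq2 list and 29.4% of the other. With any 1 of the 3 libraries at 32 DAP left out, or replicate 1 or 2 at 18 DAP, or with replicates 2 and 3 at 32 DAP summed into 1 sample, edgeR called 0, and it also called 0 without both of them. Without the libraries that stood apart, it called 3 when replicate 3 at 18 DAP was left out and 18, 4 higher and 14 lower, when replicate 1 at 28 DAP was left out, a library that enters only through the shared spread. Under 18 alternatives c90109_g1 kept its call in 11, with log2 fold changes from -2.80 to -2.34 and adjusted p from 8.77e-08 to 1. For c56057_g1 it was 8 of 18, from -1.75 to -1.29 with adjusted p from 2.69e-06 to 1, and c89689_g1 was called in 6 of 18, from 1.69 to 2.13 with adjusted p from 7.47e-05 to 1.

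**Figure D3:**
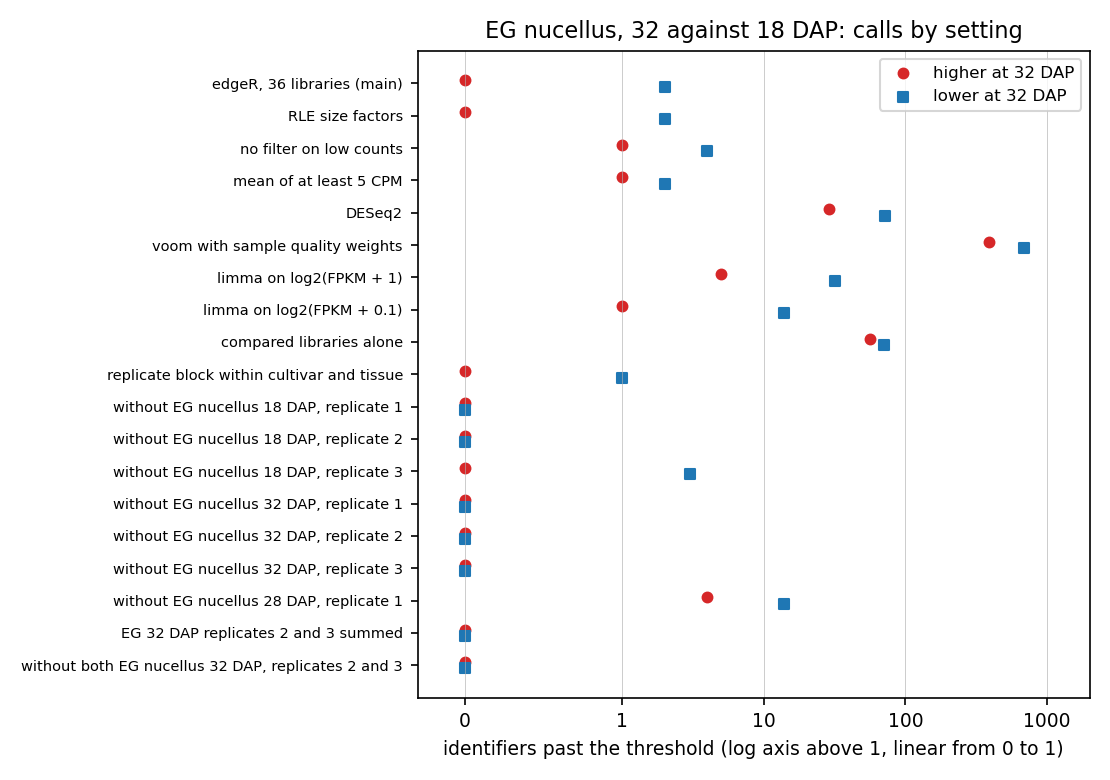
Number of identifiers past the threshold between 32 and 18 DAP, higher at 32 DAP (circles) and lower (squares), under the edgeR fit to 36 libraries and each alternative; the horizontal axis is logarithmic above 1. The count runs from 0 in either direction, when 1 of 5 libraries is left out, to 392 higher and 692 lower with voom.

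Differences in size alone were more numerous. Full separation of 3 against 3 libraries also occurs where the groups do not differ. How many identifiers that would give here was not estimated, so the counts without overlap are not numbers of changed identifiers. Without a test, 4986 identifiers (8.69%) had every 32 DAP library above every 18 DAP library, and 4691 (8.18%) had every one below. Adding at least 2-fold between the means and 5 CPM in the higher group left 782 and 523. At 4-fold there were 98 higher (0.171%) and 108 lower (0.188%), and at 8-fold 14 and 29. These lists were chosen on the compared libraries, so their separation at 32 and 18 DAP is a description and not a result. The 206 identifiers past 4-fold became 200 without replicate 3 at 18 DAP and 326, 198 higher and 128 lower, without replicate 2 at 18 DAP. Leaving a library out also eases the rule, since fewer libraries must not overlap, so these counts do not measure stability. One of the called identifiers, c90109_g1, is among the 108.

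**Figure D4:**
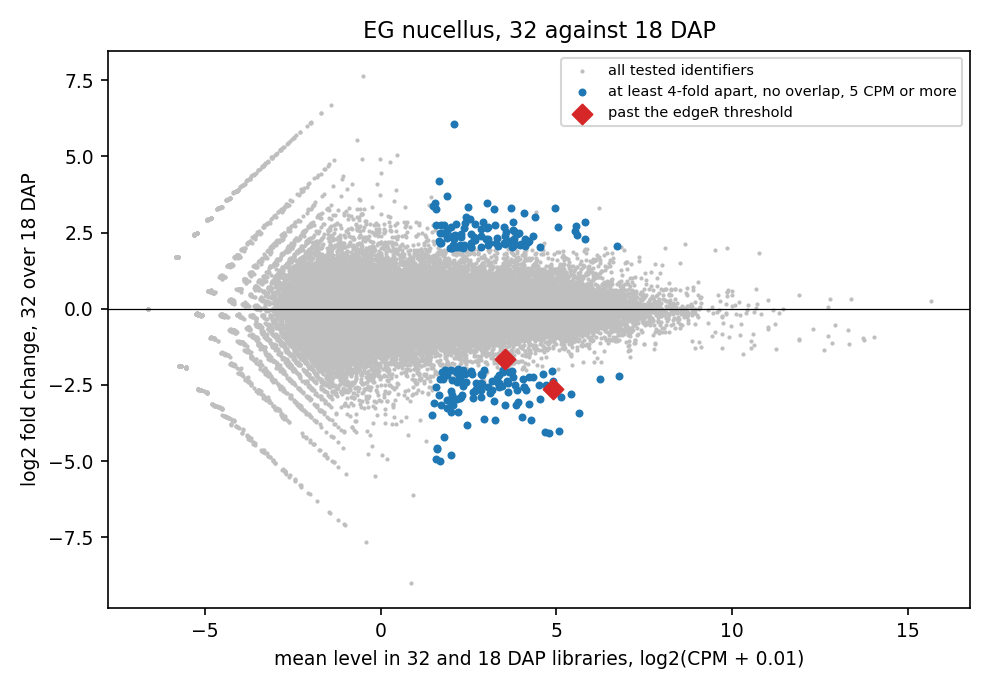
Fitted log2 fold change, 32 over 18 DAP, of each tested identifier against its mean level in the 6 libraries on a log2(CPM + 0.01) scale. Blue points are the 206 identifiers at least 4-fold apart without overlap and with 5 CPM or more in the higher group, and red diamonds the 2 called. The called identifiers lie at moderate levels and below 0, and the spread of fold changes widens at low levels.

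The precision of the comparison followed the level. Below a mean of 1 CPM the median standard error of a log2 fold change was 1.06 over 13944 identifiers, and 4.27% had an unadjusted p under 0.05. Between 5 and 20 CPM it was 0.36 over 18271 identifiers, with 6.05%, and 1 identifier called. Between 20 and 100 CPM it was 0.29 over 8382 identifiers, with 8.60%, and again 1 called. Above 100 CPM it was 0.30 over 831 identifiers, with 8.30% and none called. The fold change had no relation to transcript length, with a Spearman correlation across identifiers of -0.01.

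The 98 identifiers that stood higher at 32 DAP had modest levels. Their median was 12.3 CPM at 32 DAP and 2.22 CPM at 18 DAP, their folds ran from 4.01 to 71.0 with a median of 5.23, and 1 of them reached 100 CPM. Their summed level was 2539, 1750 and 1660 CPM at 32 DAP and 300.0, 437 and 359 CPM at 18 DAP. At 28 DAP it was 250.2, 1113 and 2254 CPM. Replicate 1 at 28 DAP thus lay below the 18 DAP libraries, and replicate 3 within the 32 DAP range.

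The 108 identifiers that stood lower at 32 DAP had a median of 2.14 CPM at 32 DAP and 12.2 CPM at 18 DAP, with folds from 4.00 to 34.0 and a median of 5.90. Their summed level was 416, 340 and 341 CPM at 32 DAP and 1847, 2098 and 2814 CPM at 18 DAP. At 28 DAP it was 3655, 382 and 480 CPM. Replicates 2 and 3 at 28 DAP were close to the 32 DAP libraries, and replicate 1 lay above every 18 DAP library. None of the 206 had 0 counts in all libraries of its lower group.

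The other tissue and the other cultivar, whose libraries had no part in choosing the 206, were read for the same identifiers. Nucellus and integument libraries of the same number deviated together from their group means, with correlations across identifiers of 0.450 to 0.653, so the integument is not independent of the nucellus here. In EG integument, 75 of the 98 (76.5%) were higher at 32 than at 18 DAP, beside 50.1% of the 29058 identifiers at 5 CPM or more, and 89 of the 108 (82.4%) were lower, beside 49.9%. The median log2 fold changes there were 0.82 and -1.40, beside 0.00. In HG nucellus, 84 of the 98 (85.7%) were higher at 32 DAP, beside 45.7%, with a median of 0.87, beside -0.04. Of the 108, 64 (59.3%) were lower in HG nucellus, beside 54.3%, with a median of -0.30. The higher identifiers therefore ran the same way in HG nucellus more often than the background, and the lower ones about as often as the background. HG nucellus may not be independent either. Same-numbered EG and HG nucellus libraries deviated from their group means with correlations of 0.0885, 0.317 and 0.533 at 18 DAP. At 32 DAP these were -0.0981, -0.212 and 0.109.

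The summed levels show how these medians sat in single libraries. The 98 summed to 2342, 1516 and 1669 CPM in EG integument at 32 DAP and 1054, 1293 and 1140 CPM at 18 DAP, without overlap. In HG nucellus they summed to 1142, 2711 and 702 CPM at 32 DAP and 770, 837 and 266 CPM at 18 DAP, and replicate 3 at 32 DAP lay below 2 of the 18 DAP libraries. The 108 summed to 1041, 389 and 413 CPM in EG integument at 32 DAP and 1664, 1520 and 4808 CPM at 18 DAP, without overlap. In HG nucellus they summed to 1199, 3948 and 2651 CPM at 32 DAP and 2059, 2032 and 3794 CPM at 18 DAP, and the ranges overlapped.

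The 98 and the 108 also differed in the tissue they belong to in HG. Between the HG tissues, with the stages averaged, 5361 identifiers (9.35%) were called as higher in nucellus and 7510 (13.1%) as higher in integument. Among the 98, 10 (10.2%) were called higher in HG nucellus and 41 (41.8%) higher in HG integument. Among the 29058 identifiers at 5 CPM or more those shares were 13.4% and 9.71%. Among the 108, 40 (37.0%) were called higher in HG nucellus and 15 (13.9%) higher in HG integument. Identifiers high at 32 DAP were thus more often integument-preferring in HG, and those low at 32 DAP more often nucellus-preferring. The summed level of the 173 strong integument identifiers, given above, was not higher at 32 DAP. However, 0 of the 29058 belong to the 173, so the 98 could hold none of them. Of the 71 strong nucellus identifiers, 69 are among the 29058, 9 among the 108 and 0 among the 98. The cause was not tested.

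**Figure D5:**
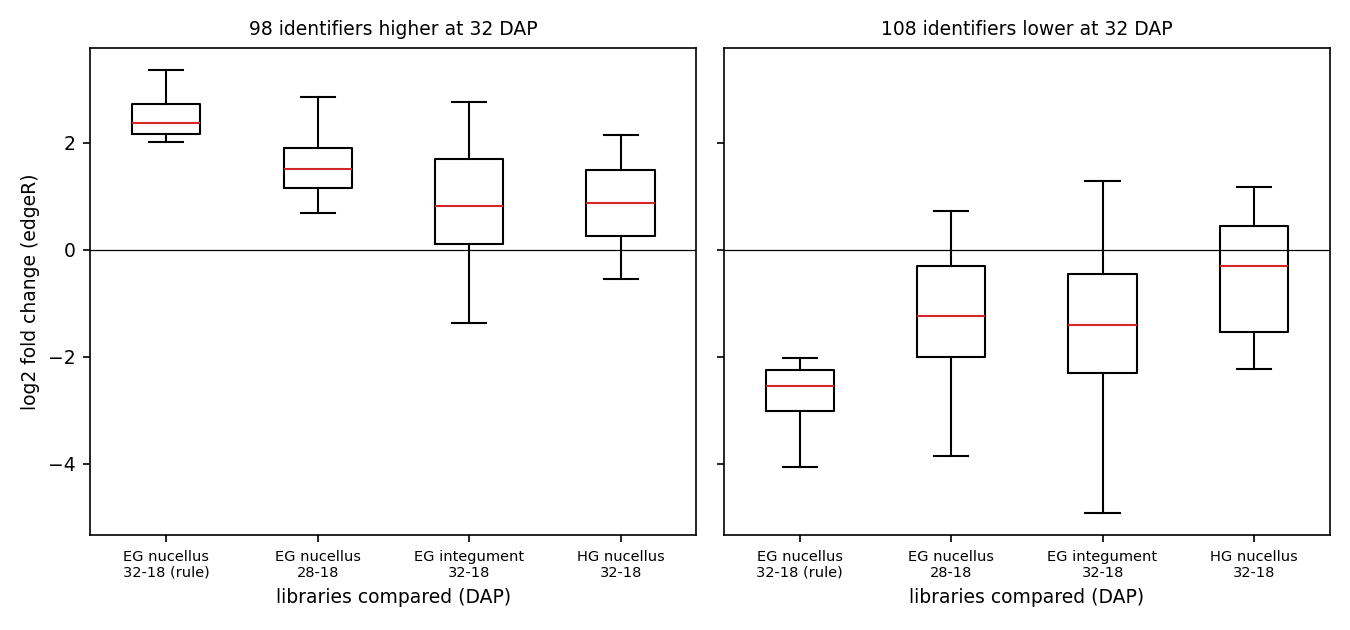
Log2 fold changes of the 98 identifiers higher (left) and the 108 lower (right) at 32 DAP, in EG nucellus (32 over 18 DAP, which chose them, and 28 over 18 DAP), EG integument and HG nucellus (32 over 18 DAP); boxes span the quartiles, red lines are medians and whiskers the 5th and 95th percentiles. The medians for EG integument and HG nucellus are 0.82 and 0.87 on the left and -1.40 and -0.30 on the right.

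Whether the change from 18 to 32 DAP in EG nucellus differed from that in EG integument was tested as a difference of differences. EdgeR called 0 identifiers (0%), and 1246 (2.17%) had an unadjusted p under 0.05. With DESeq2 8 (0.014%) were called, with voom 23 (0.0401%) and with limma on log2(FPKM + 1) 5 (0.00872%). Same-numbered nucellus and integument libraries deviated together within a stage, though at 32 DAP replicates 2 and 3 did so nearly as much across numbers. With the replicate number as a block edgeR called 2 (0.00349%), c22943_g1 and c89048_g1. They were named after their values were seen. The level of c22943_g1 was 0.0889, 0.247 and 0.248 CPM in nucellus at 32 DAP and 2.20, 2.28 and 1.35 CPM at 18 DAP. In integument it was 18.7, 56.0 and 51.9 CPM at 32 DAP and 32.6, 42.8 and 12.1 CPM at 18 DAP. It was thus low in nucellus at both stages and lower at 32 DAP, and overlapped between stages in integument (log2 difference, nucellus minus integument, -3.91, SE 0.54, edgeR adjusted p = 0.0466 with the block). The level of c89048_g1 was 1.82, 2.37 and 1.64 CPM in nucellus at 32 DAP and 6.67, 14.9 and 4.04 CPM at 18 DAP. In integument it ran the other way, at 6.03, 3.18 and 5.17 CPM at 32 DAP and 2.46, 2.88 and 0.651 CPM at 18 DAP (log2 difference -3.38, SE 0.49, edgeR adjusted p = 0.0466 with the block).

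Whether the change in nucellus differed between EG and HG was tested in the same way. EdgeR called 0 identifiers (0%), and 3543 (6.18%) had an unadjusted p under 0.05. DESeq2 called 4 (0.00698%), and voom and limma on log2(FPKM + 1) called 0. The median standard error of this difference was 0.70 on the log2 scale and was the same for the difference between tissues, against 0.50 for the change in EG nucellus itself.

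The 28 DAP libraries were compared with both stages and share the 18 and 32 DAP groups with the comparison above. Since 2 of the 3 matched single 32 DAP libraries more closely than each other, in nucellus and in integument, it is not certain that the 28 and 32 DAP labels separate the stages, and no timing is read from these values. Between 28 and 18 DAP edgeR called 10 identifiers (0.0174%), 5 higher and 5 lower (0.00872% each), and 5172 (9.02%) had an unadjusted p under 0.05. DESeq2 called 289 (0.504%), voom 67 (0.117%) and limma on log2(FPKM + 1) 45 (0.0785%). Without overlap 2279 (3.97%) were higher and 3122 (5.44%) lower at 28 DAP, and past 4-fold and 5 CPM 40 (0.0698%) and 39 (0.068%). Such separation also occurs where groups do not differ, so no change is read from these counts. EdgeR called 198 without replicate 2 and 270 without replicate 3 at 28 DAP, 6 without replicate 1 at 28 DAP or replicate 3 at 18 DAP, and 0 without replicate 1 or 2 at 18 DAP or on these 6 libraries alone.

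The 2 named identifiers that were higher at 28 DAP were high in 1 library. For c34731_g1 the levels were 430, 32.8 and 39.4 CPM at 28 DAP and 15.6, 22.7 and 24.7 CPM at 18 DAP (log2 fold change 2.99, SE 0.55, edgeR adjusted p = 0.0416). At 32 DAP it stood at 25.3, 29.1 and 27.3 CPM. For c87109_g1 they were 23.4, 1.03 and 1.94 CPM at 28 DAP and 0.283, 0.762 and 0.0674 CPM at 18 DAP (log2 fold change 4.48, SE 0.84, edgeR adjusted p = 0.0486). In both, replicate 1 at 28 DAP lay far above replicates 2 and 3, which still lay above every 18 DAP library. Without replicate 1 the log2 fold change was 0.80 for c34731_g1 and 1.95 for c87109_g1, and neither was called (edgeR adjusted p = 0.715 and 0.703). With 1 library left out at a time it ran from 0.80 to 3.46 for c34731_g1 and from 1.95 to 5.50 for c87109_g1.

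The named identifiers that were lower at 28 DAP kept their direction when single libraries were left out, with log2 fold changes of -4.66 to -3.48 for c106043_g1 and -1.87 to -1.48 for c128424_g1, but not always their call. Both lost it without replicate 1 or 2 at 18 DAP (edgeR adjusted p from 0.0877 to 0.237), and c128424_g1 also without replicate 1 at 28 DAP (edgeR adjusted p = 0.127). For c106043_g1 the levels were 1.42, 0.272 and 0.829 CPM at 28 DAP and 9.78, 24.6 and 8.42 CPM at 18 DAP (log2 fold change -4.11, SE 0.68, edgeR adjusted p = 0.0258). It stood at 1.82, 0.544 and 1.09 CPM at 32 DAP, where its log2 fold change against 18 DAP was -3.62 and just missed the threshold (SE 0.65, edgeR adjusted p = 0.0657). It had no count in EG integument at 18 DAP. For c128424_g1 the levels were 18.7, 17.0 and 23.7 CPM at 28 DAP and 73.4, 73.0 and 37.0 CPM at 18 DAP (log2 fold change -1.63, SE 0.28, edgeR adjusted p = 0.0258). At 32 DAP it stood at 33.8, 18.5 and 24.9 CPM, all below the 18 DAP libraries (log2 fold change, 32 over 18 DAP, -1.25, SE 0.28, edgeR adjusted p = 0.209).

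Between 32 and 28 DAP edgeR called 0 identifiers (0%), with a smallest adjusted p of 0.309 and 4389 (7.65%) at an unadjusted p under 0.05. DESeq2 called 150 (0.262%; 1 higher and 149 lower), and voom and limma on log2(FPKM + 1) called 0. Without overlap 2895 (5.05%) were higher and 2618 (4.57%) lower at 32 DAP, and past 4-fold and 5 CPM 3 (0.00523%) and 40 (0.0698%). Here too no change is read from the counts without overlap. EdgeR called 395, of which 351 were lower at 32 DAP, without replicate 2 at 28 DAP and 344, of which 338 were lower, without replicate 3, which leaves replicate 1 as 1 of 2 libraries in that group. The smallest p of a higher identifier belonged to c126450_g1, at 7.07, 6.68 and 8.84 CPM at 32 DAP and 1.50, 4.84 and 2.10 CPM at 28 DAP (log2 fold change 1.41, SE 0.37, edgeR adjusted p = 0.309). At 18 DAP it stood at 4.86, 6.25 and 5.52 CPM, between the later stages. The smallest p of a lower one belonged to c34731_g1, whose level at 28 DAP was set by replicate 1 (log2 fold change, 32 over 28 DAP, -2.62, SE 0.54, edgeR adjusted p = 0.309).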

How the data were processed

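RNA from laser-captured cells (about 10 to 20 ng per sample) was amplified with random priming (Ovation RNA-seq V2) and sequenced as paired reads of 150 bases on instruments of 2 models, per the labels' protocols. The submitters' processing notes name cutadapt, Bowtie2, RSEM and DESeq. Their versions and roles, and the genome or assembly used, are not given in the labels or headers. The authors deposited whole-number counts per identifier, used here as deposited, and FPKM values, which served for an alternative test and for transcript lengths. Each column name gives cultivar, tissue, stage number and replicate, which placed it with its sample. The table held 128861 identifiers, 34664 of them without a count. Libraries are whole amplified samples without molecular identifiers, and p-values measure the spread between them, which may be technical.

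Identifiers were kept by filterByExpr (minimum count 10, minimum total 15, 12 groups). The edgeR 4.0.16 quasi-likelihood F test (R 4.3.3, TMM, robust, 24 residual degrees of freedom, common biological coefficient of variation 0.439) was fitted to 36 libraries without covariates, with Benjamini-Hochberg adjustment at 0.05. Each edgeR standard error was derived as the absolute log2 fold change divided by the square root of the F statistic. The script was tested on simulated data. DESeq2 1.42.0 and limma 3.58.1 (voom with sample quality weights, and log2(FPKM + 1) or log2(FPKM + 0.1)) were alternatives, as were other filters and scaling, the compared libraries alone, replicate blocks and libraries left out. Named identifiers are, per direction, the called one with the largest fold change and the most abundant other, without overlap between groups and with 5 CPM or more in the higher group, or the smallest p where none was called; overlap was allowed for the differences of differences. Replicate numbers were taken to pair nucellus and integument within a stage, since the deviations of same-numbered EG libraries from their group means correlated at 0.630, 0.450 and 0.469 at 32 DAP and 0.653, 0.504 and 0.605 at 18 DAP. Across stages (-0.02, -0.07 and 0.01 for 32 and 18 DAP) they did not, and across cultivars not for every number (-0.0981, -0.212 and 0.109 at 32 DAP, 0.0885, 0.317 and 0.533 at 18 DAP), so these numbers were not taken as pairs. At 32 DAP, replicates 2 and 3 correlated nearly as highly with a library of the other tissue and another number (0.361 and 0.425). Their pairing is therefore less sure. The comparison and the lists were chosen with earlier results of these data known.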

Additional observations from a re-analysis of the deposited data

Results flagged for a closer look

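The 4 identifiers with the smallest edgeR p at 5 CPM or more in each direction for the differences between tissues and between cultivars had EG nucellus libraries that moved one way between 18 and 32 DAP and libraries of the group set beside them that moved the other way, without overlap between the stages in either. They were picked from 57344 identifiers by that p, and others with the same pattern exist. None was called by edgeR. DESeq2 called c79081_g1 and c50659_g1 (adjusted p = 0.0392 each) and c41814_g1 (adjusted p = 0.0315), and voom called c79081_g1 (adjusted p = 0.0240).

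Between the EG tissues, c79081_g1 stood at 6.09, 3.07 and 6.46 CPM in nucellus at 32 DAP and 0.961, 1.07 and 0.269 CPM at 18 DAP, while in integument it stood at 3.39, 1.66 and 1.28 CPM at 32 DAP and 5.11, 6.37 and 8.34 CPM at 18 DAP. The log2 difference of the changes, nucellus minus integument, was 4.38 (SE 0.97, edgeR adjusted p = 1.00). The opposite pattern was seen for c50659_g1, at 1.91, 2.62 and 2.19 CPM in nucellus at 32 DAP and 8.59, 5.84 and 5.73 CPM at 18 DAP, with 0.548, 0.902 and 0.759 CPM in integument at 32 DAP and 0.0646, 0.189 and 0.0592 CPM at 18 DAP. Its log2 difference was -4.26 (SE 0.83, edgeR adjusted p = 0.599).

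Between the cultivars, c104389_g1 stood at 12.1, 17.8 and 19.7 CPM in EG nucellus at 32 DAP and 8.59, 8.78 and 7.41 CPM at 18 DAP, and at 11.1, 10.3 and 9.68 CPM in HG nucellus at 32 DAP and 15.3, 14.9 and 13.4 CPM at 18 DAP. The log2 difference of the changes, EG minus HG, was 1.49 (SE 0.35, edgeR adjusted p = 0.714). The level of c41814_g1 was 9.47, 6.63 and 8.79 CPM in EG nucellus at 32 DAP and 19.3, 12.6 and 14.3 CPM at 18 DAP, and 16.6, 22.3 and 10.5 CPM in HG nucellus at 32 DAP and 10.1, 7.94 and 6.38 CPM at 18 DAP. Its log2 difference was -1.91 (SE 0.39, edgeR adjusted p = 0.714). In integument c41814_g1 was far more abundant, with means at 18 and 32 DAP of 93.2 and 116 CPM in EG and 80.3 and 101 CPM in HG.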

How the results depend on the processing

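Calls between 32 and 18 DAP numbered 2 with edgeR, 2 with RLE size factors, 3 at a mean of 5 CPM or more, 5 without a filter on low counts, 101 with DESeq2, 1084 with voom, 37 and 15 with limma on log2(FPKM + 1) and log2(FPKM + 0.1), and 126 on the compared libraries alone. They numbered 0 with EG replicates 2 and 3 at 32 DAP summed or both left out, and 0 to 18 with 1 library left out. Between 28 and 18 DAP the 10 calls became 289 with DESeq2, 67 with voom, 45 and 27 with the limma fits, 0 on the compared libraries alone, 4 with the summed replicates, and 0 to 270 with 1 library left out. Between 32 and 28 DAP the 0 calls became 150 with DESeq2 and 0 to 395 with 1 library left out. For the difference between tissues, 0 calls became 8 with DESeq2, 23 with voom, 5 and 2 with the limma fits and 0 to 1 with 1 library left out, and for that between cultivars 4 with DESeq2 and 0 to 1. The 206 identifiers past 4-fold became 200 to 326 with 1 library left out, which also eases the rule of no overlap. Apart from the library counts, the causes were not tested.

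The replicate block within cultivar and tissue changed the 2 calls between 32 and 18 DAP to 1 and the 10 calls between 28 and 18 DAP to 0, though same-numbered libraries of 32 and 18 DAP did not deviate together. The block within cultivar and stage, which pairs the tissues, gave 2 calls for the difference between tissues against 0 without it. Those alternatives that left out replicates 2 and 3 together, blocked within stage, or concerned the 4-fold lists were chosen after seeing the data. Over 240 values of the named identifiers under the alternatives, 0 reversed direction, 178 stayed on their side of the threshold, 47 lost their call and 15 gained one.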
